A study of Mus musculus with 6 samples.

Results

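The genes described here are 38 markers of dividing cells, taken by symbol from a table of 27098 genes: 16 that act in DNA replication (S phase) and 22 that act in mitosis (M phase). All 38 were found, and all 38 were among the 17475 genes with enough counts to be tested. They were read in cultured mouse ovaries, collected 3 days after birth and kept for 2 h in DMEM/F12 medium with antibiotics. The 3 control libraries came from this medium alone and the 3 PRP libraries from the same medium with 2% platelet-rich plasma (PRP), which the series text calls human and thrombin-activated. The labels give no strain, and neither a thrombin nor a plasma control. They do not say how many ovaries made up a library or whether libraries came from separate animals, so p-values measure only the spread between these libraries, which may be technical. The study asked whether PRP activates primordial follicles, the resting pool of oocytes. The comparison of PRP with control addresses, for the genes here, whether transcripts of the division machinery differed after 2 h.

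A dividing cell first licenses its replication origins by loading the MCM helicase, which Cdc6 and Cdt1 place on DNA and geminin (Gmnn) keeps from being loaded again. E2F transcription factors switch on this replication set. The mitotic set follows later, when cyclin B and Cdk1, Polo and Aurora kinases build the spindle, and it is shut off at the end of mitosis by Cdc20 and Ube2c of the anaphase-promoting complex. In the neonatal ovary oocytes have left the mitotic cycle and are held in meiotic prophase, pregranulosa cells of resting follicles divide little, and stromal, surface and vessel cells divide. Oocytes also store some of these transcripts, so that the genes here are not markers of somatic division alone.

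The 2 sets differ in the sequence around their transcription starts, and 7 promoters are shown because they carry the motifs that tell the sets apart. Promoters came from RefSeq (GRCm38.p6), 250 bases before to 50 bases after each start. Of the 38 genes 32 had an entry, with 35 windows in all, and Ccne2, Mcm4, Gmnn, Aurkb, Ccna2 and Tpx2 had none. Searched on both strands were TTTNNCGC, a form of the E2F site, TTTGAA, the cell cycle genes homology region (CHR) that the DREAM repressor complex and its activating partners bind, and the CCAAT box, the site of NF-Y. In the windows of these genes, matches to different motifs overlapped once (1 pair). Lines run 5′ to 3′ along the gene, and capitals mark every match.
Mcm6 (chr1:128359706-128359885, minus strand): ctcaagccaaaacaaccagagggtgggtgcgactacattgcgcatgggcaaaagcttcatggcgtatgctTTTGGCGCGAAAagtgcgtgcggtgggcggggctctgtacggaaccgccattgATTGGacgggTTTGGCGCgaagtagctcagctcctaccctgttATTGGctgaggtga
Mcm5 (chr8:75109288-75109467, plus strand): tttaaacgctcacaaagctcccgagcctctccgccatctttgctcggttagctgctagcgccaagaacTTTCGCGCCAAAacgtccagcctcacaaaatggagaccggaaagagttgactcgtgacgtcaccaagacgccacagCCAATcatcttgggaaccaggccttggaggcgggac
Uhrf1 (chr17:56303157-56303336, plus strand): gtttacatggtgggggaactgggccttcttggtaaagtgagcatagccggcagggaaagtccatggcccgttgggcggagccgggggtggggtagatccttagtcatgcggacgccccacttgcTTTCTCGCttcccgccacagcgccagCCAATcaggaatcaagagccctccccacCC
Mki67 (chr7:135716451-135716629, minus strand): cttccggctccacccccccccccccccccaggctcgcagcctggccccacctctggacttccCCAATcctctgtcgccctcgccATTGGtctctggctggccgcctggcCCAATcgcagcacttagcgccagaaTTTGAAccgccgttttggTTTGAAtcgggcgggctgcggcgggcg
Top2a (chr11:99024200-99024379, minus strand): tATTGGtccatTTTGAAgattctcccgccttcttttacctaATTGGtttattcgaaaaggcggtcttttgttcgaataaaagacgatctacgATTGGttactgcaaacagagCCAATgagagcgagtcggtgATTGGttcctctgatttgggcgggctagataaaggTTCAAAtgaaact
Kif11 (chr19:37376202-37376381, plus strand): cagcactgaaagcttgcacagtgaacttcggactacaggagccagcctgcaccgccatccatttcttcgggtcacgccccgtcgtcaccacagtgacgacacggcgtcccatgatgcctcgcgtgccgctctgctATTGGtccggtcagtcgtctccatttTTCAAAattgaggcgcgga
Cdc20 (chr4:118437344-118437523, minus strand): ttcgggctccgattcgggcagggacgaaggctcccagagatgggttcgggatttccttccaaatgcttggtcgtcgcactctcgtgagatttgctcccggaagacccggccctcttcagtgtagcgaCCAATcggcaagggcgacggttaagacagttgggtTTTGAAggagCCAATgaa
The final CC of Uhrf1 opens a CCAAT match that crosses the start. The stretches of Mcm5, Mki67 and Top2a end 42, 72 and 11 bases before the start used, because the RefSeq gene begins earlier.

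E2F matches were in 9 of 15 S phase windows (60.0%), in 1 of 20 M phase windows (5.0%, Cdk1) and in 5.17% of all 32851 windows of the table. CHR matches were distributed the other way, in 15 of 20 M phase windows (75.0%), in 1 of 15 S phase windows (6.67%, Mcm2) and in 17.9% of all windows. The CCAAT box was common in both sets, at 73.3% of S and 90.0% of M phase windows against 37.4% of all. These shares count the bases after the start too. The E2F matches of Mcm3, Tyms and Cdt1 lay only there, as did the CHR matches of Cenpf, Bub1b, Aurka, Plk1, Kif23 and Ttk. Mcm6 holds E2F matches 110, 106 and 47 bases before its start, and Cdc20 a CHR match 18 and a CCAAT match 53 bases before its start. These are matches of letters and not measured binding sites, and a gene can have its site outside the window.

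Libraries held 35568000 to 36568367 counts. The tissue was recognisable in every library by oocyte, granulosa and stromal markers, and no gene of the oocyte, granulosa, stromal and surface epithelium lists was at 0 in any library. In such bulk RNA fewer cells of a type and less RNA per cell cannot be told apart. The library control 3 stood apart for the genes described here. It ranked first among the 6 libraries for 24 of the 38 genes (63.2%), and for 20.6% of all tested genes, and each other library was highest in 1 to 5 of the 38. The S phase genes contributed 13 of 16 and the M phase genes 11 of 22. Together the 38 genes made up 0.389% of control 3 and 0.335% to 0.346% of the counts of the other 5 libraries.

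Markers of red blood cell precursors moved with this library. All 9 genes of the erythroid list were highest in control 3, where they summed to 1574 CPM (counts scaled to library size by TMM), against 109 and 144 CPM in controls 1 and 2 and 109 to 225 CPM in PRP. Hemgn, a nuclear protein of red cell precursors, was at 34.3 CPM in control 3 and at 0 or below 0.1 CPM in the others. The part of these cells in the S and M phase values was not tested. Of the other marker lists, macrophage and leukocyte genes summed to 92.4 CPM in control 3 against 69.3 to 87.4 CPM elsewhere, and granulosa genes to 1242 CPM against 1106 to 1220 CPM, with 4 of 9 and 4 of 11 genes highest there. Sums are led by a few genes, and gene by gene the granulosa list stood further off, with a median ratio of control 3 to the mean of controls 1 and 2 of 1.52 (0.89 for Foxl2 to 2.04 for Fshr). Oocyte, stromal, surface epithelium, endothelial and pericyte sums of control 3 lay within the range of the other libraries. The median ratio was nevertheless 1.41 for the pericyte and smooth muscle genes (Acta2 1.79, Tagln 1.73), 1.19 for endothelial, 1.16 for stromal, 1.14 for macrophage and leukocyte, 1.00 for surface epithelium and 0.96 for oocyte genes. The part of these cell types in the S and M phase values was not tested either. Because control 3 is 1 of only 3 controls, log2 fold changes below are also given without it.

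PRP and control were not told apart for any of the 38 genes. In edgeR's quasi-likelihood test with Benjamini-Hochberg adjustment over all 17475 genes, 0 of 38 were called higher and 0 lower, and 0% of all genes were called in either direction. The lowest adjusted p of the 38 was 0.9998. DESeq2 and limma-voom also called 0 of the 38. At an unadjusted p under 0.05 stood 1 of the 38 in edgeR (Cenpf) and 0 in DESeq2 and limma-voom, where 3.19% of all genes did so in edgeR. When replicate numbers entered the fit as a block, 14 genes were called higher (0.0801%) and 7 lower (0.0401%) over the whole table, and 0 of the 38. At the unadjusted level 2 of the 38 then stood (Cenpf and Birc5), against 11.2% of all genes. The labels do not state that numbers pair libraries, and the pairing was read from these same counts.

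These null results came with narrow intervals. For 34 of the 38 genes the 95% interval of the fold change, taken gene by gene, lay inside a 1.5-fold change in either direction. The exceptions were Ccne2, Cdc6, Rrm2 and Mki67, 3 of which were the genes that stood furthest above the other controls in control 3. Without control 3, all 38 intervals lay inside 1.5-fold, and all 38 lay inside 2-fold with it. Log2 fold changes, PRP minus control, had a median of -0.07 over the S phase genes (4 above 0 and 12 below) and -0.03 over the M phase genes (8 above and 14 below), beside 0.001 over all tested genes. Without control 3 the medians turned to 0.05 and 0.02, with 12 of 16 and 14 of 22 above 0, and 0.005 over all genes. Control 3 was picked as high in these genes, so the shift of medians and intervals on leaving it out is no independent result.

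**Figure D1:**
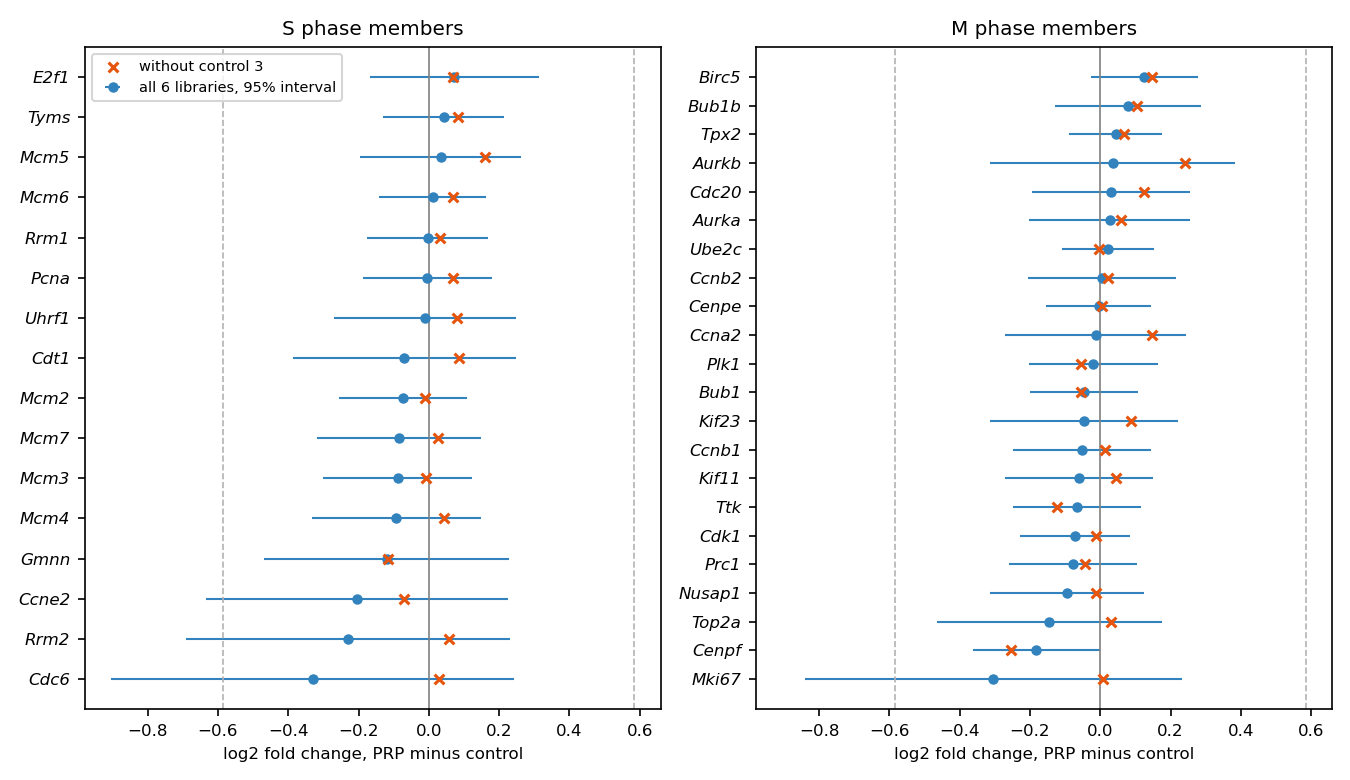
Log2 fold change (PRP minus control, x axis) of each S phase gene (left) and M phase gene (right), as points with 95% intervals from edgeR over all 6 libraries, and as crosses without control 3; dashed lines mark a 1.5-fold change. The intervals of Cdc6, Rrm2, Ccne2 and Mki67 pass the left dashed line, and the crosses of Cdc6, Rrm2 and Mki67 lie at 0.03, 0.06 and 0.0069.

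The groups overlapped in 37 of the 38 genes. Birc5 was the 1 gene with all PRP libraries above all controls (4.34% of all genes were so placed), and 0 of 38 had all PRP libraries below (4.87% of all genes). Libraries of the same number deviated together, so PRP was also read against the control of its own number. Birc5 and Tpx2 lay higher in all 3 pairs (2 of 38, against 16.8% of all genes), and Mcm3, Gmnn, Cdk1, Cenpf, Ttk and Prc1 lay lower in all 3 (6 of 38, against 16.3%). The share higher in all 3 (5.26%) lies below the background, and the share lower in all 3 (15.8%) lies near it. Median log2 differences of the S phase genes were 0.03, -0.01 and -0.16 in pairs 1, 2 and 3, and those of the M phase genes 0.01, 0.01 and -0.07. The pair that holds control 3 was the one with both medians furthest from 0.

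**Figure D2:**
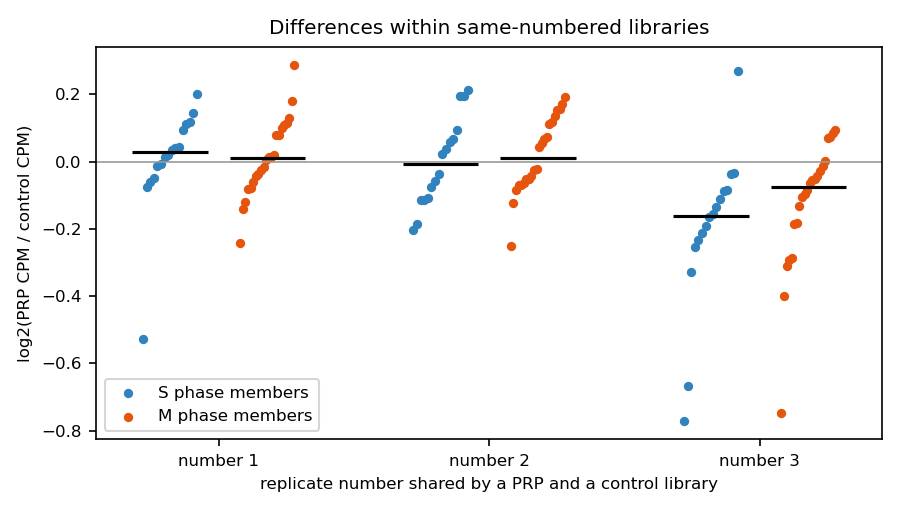
Log2 ratio of PRP to control CPM (y axis) for each S phase gene (blue) and M phase gene (orange) within the libraries that share a replicate number (x axis), with black bars at the medians. Numbers 1 and 2 are centred near 0, and number 3 has medians of -0.16 and -0.07 with Cdc6, Mki67 and Rrm2 at the bottom (-0.77, -0.75 and -0.67).

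The MCM genes varied by 1.11-fold (Mcm6) to 1.21-fold (Mcm7) over the 5 libraries other than control 3. Per kilobase of exon, the 6 subunits of the MCM helicase, which sit 1 each in the ring, had mean levels between 27.4 CPM per kb (Mcm4) and 37.7 CPM per kb (Mcm6), a spread of 1.38-fold. Mcm2 counted 91.5, 105 and 111 CPM in controls 1 to 3 and 92.8, 99.4 and 99.8 CPM in PRP 1 to 3. Mcm3 counted 80.3, 87.5 and 98.1 CPM in controls 1 to 3 and 77.0, 80.8 and 92.3 CPM in PRP 1 to 3. Control 3 was the highest library of both, and the other control and PRP values were interleaved. Mcm4 counted 90.1, 94.99 and 119.6 CPM in controls 1 to 3 and 92.8, 91.2 and 102 CPM in PRP 1 to 3, and Mcm5 106, 105 and 134 CPM in controls 1 to 3 and 122, 109 and 122 CPM in PRP 1 to 3. Mcm6 counted 152, 164 and 177 CPM in controls 1 to 3 and 165, 168 and 164 CPM in PRP 1 to 3, and Mcm7 99.7, 96.6 and 121 CPM in controls 1 to 3 and 108, 89.6 and 102 CPM in PRP 1 to 3. All 6 subunits were highest in control 3, 1.12-fold (Mcm6) to 1.29-fold (Mcm4) above the mean of controls 1 and 2. Their log2 fold changes ran from -0.09 ± 0.11 for Mcm4 to 0.03 ± 0.10 for Mcm5 (SE, n = 3 per group), none called. Without control 3 they ran from -0.01 for Mcm2 to 0.16 for Mcm5.

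Cdc6 (Entrez 23834, chromosome 11, 98907709 to 98923942), the loader of the helicase, was the most uneven gene of the 38 (positions here and below are from RefSeq on GRCm38). It counted 12.5, 12.3 and 22.9 CPM in controls 1 to 3 and 13.8, 10.7 and 13.4 CPM in PRP 1 to 3. Control 3 was 1.85-fold above the mean of the other controls, and the remaining 5 libraries lay between 10.7 and 13.8 CPM. Its log2 fold change was -0.33 ± 0.25 (SE, n = 3 per group, 95% interval -0.90 to 0.24, edgeR adjusted p = 0.9998) and 0.03 without control 3. Cdt1, its partner, counted 43.0, 37.2 and 53.7 CPM in controls 1 to 3 and 42.8, 37.7 and 47.0 CPM in PRP 1 to 3. It too was highest in control 3, by a smaller margin, and its log2 fold change went from -0.07 to 0.09 without that library. Gmnn, the inhibitor of Cdt1, counted 25.0, 36.03 and 30.7 CPM in controls 1 to 3 and 23.7, 31.7 and 28.9 CPM in PRP 1 to 3. It was not high in control 3, but followed the replicate numbers, with the libraries numbered 1 low and those numbered 2 high in both groups. Over the 5 libraries other than control 3 its range was 1.52-fold, the widest of the 38 after Ccne2 (1.57-fold). Its log2 fold change was -0.12 ± 0.15 (SE), and -0.12 without control 3.

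The G1/S regulators did not follow the licensing genes as a pair. E2f1, an activating E2F factor, counted 49.96, 46.7 and 48.0 CPM in controls 1 to 3 and 51.2, 43.1 and 57.8 CPM in PRP 1 to 3. PRP 3 was highest and PRP 2 lowest, with the controls between, and the log2 fold change was 0.07 ± 0.11 (SE), and 0.07 without control 3. Ccne2, a cyclin E that opens S phase, counted 13.3, 12.7 and 16.8 CPM in controls 1 to 3 and 9.23, 14.5 and 13.4 CPM in PRP 1 to 3. PRP 1 was lowest and control 3 highest, and its log2 fold change of -0.20 ± 0.19 (SE) went to -0.07 without control 3. Ccne2 overlaps Ints8 and A630034I12Rik in the genome, which hold more counts, so that its level is uncertain.

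At the replication fork, Pcna, the sliding clamp, counted 115, 109.8 and 130.4 CPM in controls 1 to 3 and 114, 127 and 113 CPM in PRP 1 to 3. Uhrf1, which guides DNA methylation onto new strands, counted 343, 299 and 383 CPM in controls 1 to 3 and 352, 292 and 373 CPM in PRP 1 to 3. Per kilobase of a gene's merged annotated exons, Uhrf1 had the highest level of all 38 genes, at 92.8 ± 10.3 CPM per kb. Pcna followed at 78.0 ± 5.6 CPM per kb (SD over the 6 libraries), and their ranges overlapped. Merged exons join all annotated forms and can be longer than any single transcript, so this order may differ with transcript lengths. Ube2c, for example, was given 2600 bases of exon in a gene that runs from 164769929 to 164772902. In Uhrf1 the libraries numbered 2 were lowest in both groups. Log2 fold changes were -0.0049 ± 0.08 for Pcna and -0.01 ± 0.11 for Uhrf1 (SE), and 0.07 and 0.08 without control 3.

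Of the nucleotide supply genes, Rrm2 (Entrez 20135, chromosome 12, 24708254 to 24714146), the S phase subunit of ribonucleotide reductase, counted 38.2, 33.8 and 59.7 CPM in controls 1 to 3 and 38.6, 36.1 and 37.6 CPM in PRP 1 to 3. Control 3 stood 1.66-fold above the mean of controls 1 and 2, while the other 5 libraries lay within 33.8 to 38.6 CPM. The log2 fold change of -0.23 ± 0.20 (SE, 95% interval -0.69 to 0.23) became 0.06 without that library. Rrm1, the large subunit of the same enzyme, did not share this excess and counted 132, 128 and 139 CPM in controls 1 to 3 and 128, 147 and 124 CPM in PRP 1 to 3. Tyms, thymidylate synthase, counted 42.5, 41.5 and 45.5 CPM in controls 1 to 3 and 45.4, 43.5 and 44.5 CPM in PRP 1 to 3, among the most even of the 38. Their log2 fold changes were -0.0030 ± 0.08 and 0.04 ± 0.08 (SE), and 0.03 and 0.08 without control 3.

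**Figure D3:**
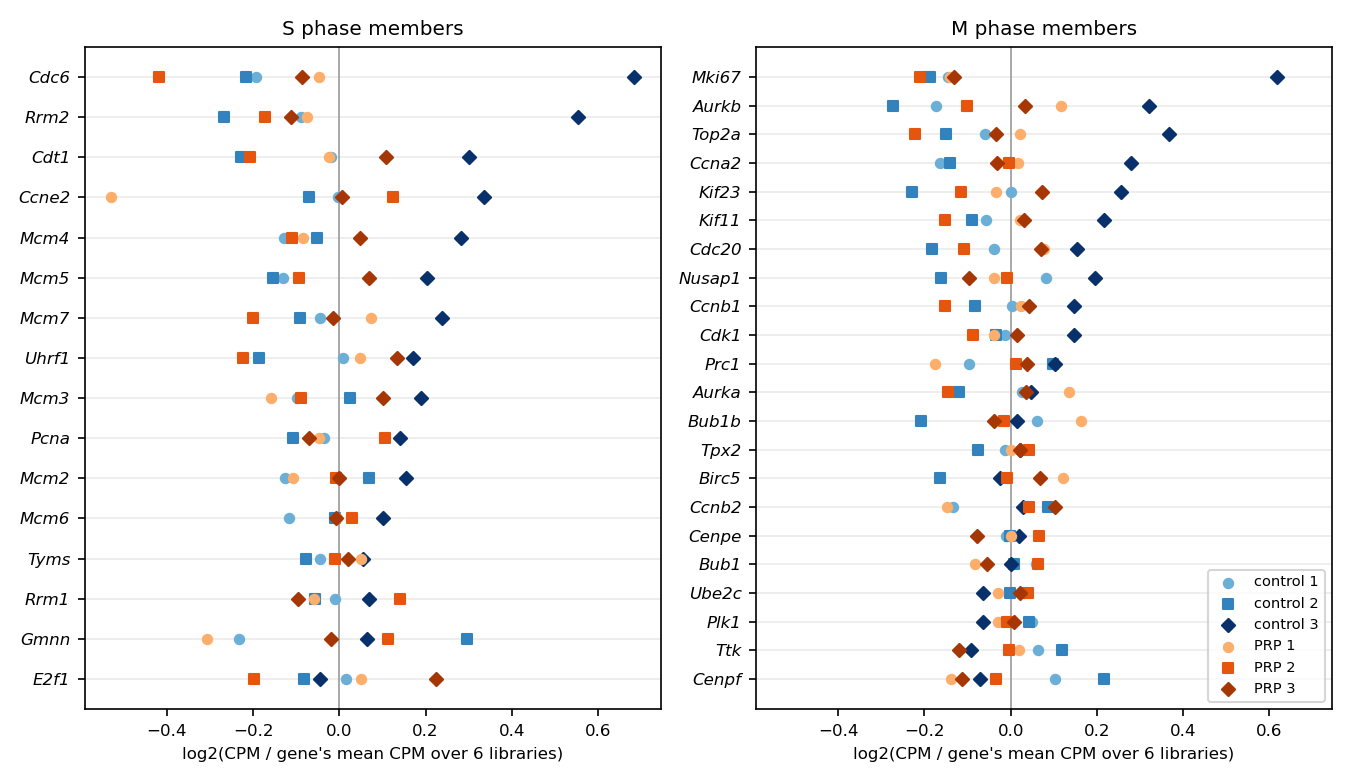
Log2 of CPM over the gene's own mean of the 6 libraries (x axis) for each S phase gene (left) and M phase gene (right), sorted by the ratio of control 3 to the other controls; blue marks are controls, orange marks PRP, and the shape gives the replicate number. Control 3 (dark blue diamonds) is the rightmost mark in 13 of 16 S phase and 11 of 22 M phase genes, and PRP and the other controls are intermixed.

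Among the M phase genes, the chromosome proteins gave the largest library difference. Mki67 (Entrez 17345, chromosome 7, 135689784 to 135716450), the Ki-67 antigen that coats mitotic chromosomes and is the usual marker of proliferation, counted 238, 232 and 404 CPM in controls 1 to 3 and 239, 228 and 241 CPM in PRP 1 to 3. Control 3 was 1.72-fold above the mean of controls 1 and 2, and the other 5 libraries stayed within 228 to 241 CPM, a range of 1.06-fold. The means were 291 ± 97.9 CPM for the controls against 236 ± 7.06 CPM for PRP (SD over 3 libraries each), and the log2 fold change was -0.30 ± 0.22 (SE, 95% interval -0.84 to 0.23). Without control 3 it was 0.0069. Top2a (Entrez 21973, chromosome 11, 98992947 to 99024199), the topoisomerase that untangles sister chromatids, counted 188, 177 and 253 CPM in controls 1 to 3 and 199, 168 and 192 CPM in PRP 1 to 3. It too was highest in control 3, and its log2 fold change went from -0.14 ± 0.14 (SE) to 0.03 without it.

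The mitotic kinases and cyclins lay close together in the 2 groups. Cdk1, the kinase that starts mitosis, counted 95.7, 94.3 and 107 CPM in controls 1 to 3 and 94.0, 90.9 and 97.5 CPM in PRP 1 to 3. Its cyclins Ccnb1 and Ccnb2 counted 56.4, 53.1 and 62.3 CPM in controls 1 to 3 and 57.2, 50.7 and 58.0 CPM in PRP 1 to 3, and 45.9, 53.4 and 51.4 CPM in controls 1 to 3 and 45.4, 51.8 and 54.1 CPM in PRP 1 to 3, respectively. PRP and control interleaved in both cyclins. Log2 fold changes of Cdk1, Ccnb1 and Ccnb2 were -0.07 ± 0.07, -0.05 ± 0.09 and 0.01 ± 0.09 (SE), and -0.01, 0.01 and 0.02 without control 3. Ccna2, cyclin A of S and G2, counted 71.3, 72.5 and 97.0 CPM in controls 1 to 3 and 80.8, 79.7 and 78.2 CPM in PRP 1 to 3. Control 3 was 1.35-fold above the mean of the other controls, all 3 PRP libraries lay above controls 1 and 2, and the log2 fold change went from -0.01 ± 0.11 (SE) to 0.15 without control 3, not called. Ccna2 overlaps Exosc9 in the genome by 863 bases, and Mcm7, E2f1, Aurka, Cdc20 and Nusap1 overlap a neighbour each by 7 to 242 bases. Prc1 overlaps Rccd1 by 21669 bases, nearly its whole gene span, and Rccd1 held 5593 counts against 35467 for Prc1. Without the strand used in counting these levels are less certain.

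Plk1, the Polo kinase, was among the most even genes, with 36.9, 36.8 and 34.2 CPM in controls 1 to 3 and 35.0, 35.5 and 35.9 CPM in PRP 1 to 3. Aurka, which acts at the spindle poles, counted 34.9, 31.5 and 35.4 CPM in controls 1 to 3 and 37.7, 31.0 and 35.1 CPM in PRP 1 to 3. Log2 fold changes of Plk1 and Aurka were -0.02 ± 0.08 and 0.03 ± 0.10 (SE), and -0.05 and 0.06 without control 3. Aurkb, the kinase of the chromosomal passenger complex, counted 27.7, 25.8 and 39.0 CPM in controls 1 to 3 and 33.8, 29.1 and 31.9 CPM in PRP 1 to 3. In Aurkb control 3 was highest and all PRP libraries lay above controls 1 and 2. Its log2 fold change was 0.04 ± 0.15 with and 0.24 ± 0.11 without control 3 (SE, edgeR adjusted p = 0.9998 and 0.989), not called in either. Birc5 (Entrez 11799, chromosome 11, 117849237 to 117855743), survivin, is a partner of Aurkb in that complex and counted 120.0, 108 and 119 CPM in controls 1 to 3 and 131, 120.1 and 127 CPM in PRP 1 to 3. It was the only one of the 38 without overlap between the groups, although PRP 2 and control 1 differed by less than 0.1 CPM. Its means were 115 ± 6.69 CPM for the controls against 126 ± 5.68 CPM for PRP (SD over 3 libraries each), a log2 difference of 0.13 ± 0.07 (SE, edgeR adjusted p = 0.9998, and 0.348 with the block), which was 0.15 without control 3.

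The 5 spindle checkpoint and anaphase genes varied little between libraries as a group. Their sum ran from 384 to 404 CPM in control and from 391 to 399 CPM in PRP. Bub1, a checkpoint kinase, counted 68.2, 65.9 and 65.6 CPM in controls 1 to 3 and 61.9, 68.5 and 63.1 CPM in PRP 1 to 3. Bub1b, which holds back the anaphase-promoting complex, counted 65.9, 54.6 and 63.7 CPM in controls 1 to 3 and 70.6, 62.4 and 61.4 CPM in PRP 1 to 3, and Ttk, the kinase at the head of the checkpoint, 59.4, 61.7 and 53.3 CPM in controls 1 to 3 and 57.6, 56.7 and 52.3 CPM in PRP 1 to 3. In Bub1b control 2 was lowest and PRP 1 highest, and in Ttk control 3 and PRP 3 were lowest. Cdc20, the activator of the anaphase-promoting complex, counted 53.4, 48.3 and 61.0 CPM in controls 1 to 3 and 57.8, 50.8 and 57.6 CPM in PRP 1 to 3. Ube2c, its ubiquitin-conjugating enzyme, counted 158, 154 and 147 CPM in controls 1 to 3 and 151, 158 and 157 CPM in PRP 1 to 3, and control 3 was its lowest library. The 5 log2 fold changes lay between -0.07 (Ttk) and 0.08 (Bub1b). Without control 3 they were -0.12 for Ttk, -0.06 for Bub1, -0.0035 for Ube2c, 0.11 for Bub1b and 0.12 for Cdc20.

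Among spindle and kinetochore genes, Cenpf (Entrez 108000, chromosome 1, 189640606 to 189688107), a large protein of the outer kinetochore, had the smallest p-value of the 38. It counted 122, 132 and 108 CPM in controls 1 to 3 and 103, 111 and 105 CPM in PRP 1 to 3. PRP lay below controls 1 and 2 throughout, and control 3 lay between PRP 2 and PRP 3, so that the groups overlapped. Its means were 120.5 ± 11.99 CPM for the controls against 106 ± 3.99 CPM for PRP (SD over 3 libraries each). The log2 difference was -0.18 ± 0.08 (SE), with an unadjusted p of 0.0481 and an adjusted p of 0.9998 in edgeR, and -0.26 without control 3 (adjusted p = 0.989). With the block it was -0.18 ± 0.06 (adjusted p = 0.218). Cenpe, the kinetochore motor, counted 65.6, 66.0 and 67.0 CPM in controls 1 to 3 and 66.2, 69.2 and 62.6 CPM in PRP 1 to 3, with a log2 difference of -0.0045 ± 0.07 (SE), and 0.0048 without control 3.

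Kif11, the motor that separates the spindle poles, counted 80.5, 78.7 and 97.3 CPM in controls 1 to 3 and 85.1, 75.3 and 85.6 CPM in PRP 1 to 3. Kif23, a motor of the spindle midzone, counted 57.6, 49.0 and 68.7 CPM in controls 1 to 3 and 56.2, 53.0 and 60.5 CPM in PRP 1 to 3. Control 3 was highest in both, 1.22-fold and 1.29-fold above the mean of the other controls. Prc1, which bundles microtubules at the midzone, counted 154, 176 and 177 CPM in controls 1 to 3 and 146, 166 and 169 CPM in PRP 1 to 3. Tpx2, which activates Aurora A on the spindle, counted 96.0, 91.9 and 98.3 CPM in controls 1 to 3 and 97.0, 99.7 and 98.4 CPM in PRP 1 to 3, and Nusap1, a microtubule-binding protein, 54.4, 45.9 and 58.8 CPM in controls 1 to 3 and 50.01, 51.1 and 48.0 CPM in PRP 1 to 3. Libraries numbered 1 were the lowest of each group in Prc1, and Tpx2 was nearly level. Log2 fold changes of these 5 genes lay between -0.09 (Nusap1) and 0.04 (Tpx2). Without control 3 they were -0.04 for Prc1, -0.01 for Nusap1, 0.04 for Kif11, 0.07 for Tpx2 and 0.09 for Kif23.

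Control 3 was thus high in some of these genes and not in others. Its ratio to the mean of controls 1 and 2 had a median of 1.18 over the S phase genes (range 0.99 to 1.85), 1.07 over the M phase genes (0.85 to 1.72) and 1.00 over all tested genes. It passed 1.2-fold in 7 of 16 S phase genes (43.8%), 6 of 22 M phase genes (27.3%) and 18.6% of all genes. Among genes with a promoter entry the median ratio was 1.19 for the 9 with an E2F match (1.08 to 1.85). It was 1.07 for the 15 with a CHR match (0.85 to 1.72, Cdk1 is in both) and 1.07 for the 9 with neither (0.98 to 1.66). Apart from Cdk1 the E2F genes are S phase genes, and apart from Mcm2 the CHR genes are M phase genes. Motif and set therefore coincide in large part here, and the part of each was not tested. The S phase genes with an entry but no E2F match were Mcm2, Pcna, Rrm1, Rrm2 and E2f1, with ratios of 1.13, 1.16, 1.07, 1.66 and 0.99. Summed over the 16 S phase genes, levels were 1435, 1410 and 1692 CPM in controls 1 to 3 and 1477, 1421 and 1535 CPM in PRP 1 to 3. Over the 22 M phase genes they were 1949, 1907 and 2268 CPM in control and 1956, 1906 and 1969 CPM in PRP. Mki67 alone held 404 CPM of the M phase sum in control 3.

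**Figure D4:**
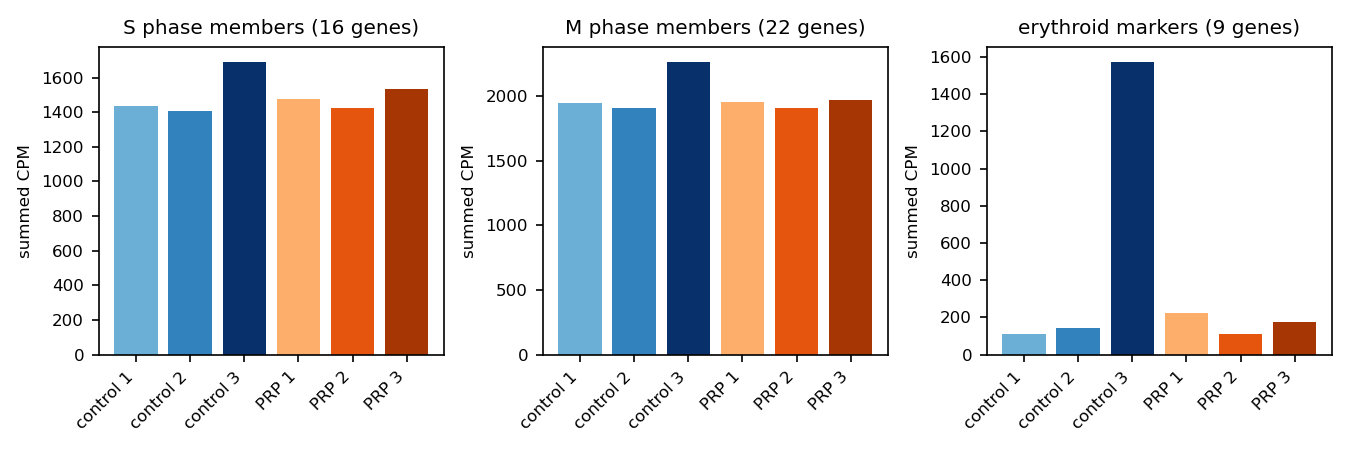
Summed CPM (y axis, from 0) in each library of the 16 S phase genes, the 22 M phase genes and the 9 erythroid markers. Control 3 is the tallest bar in all 3 panels, at 1692, 2268 and 1574 CPM.

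**Figure D5:**
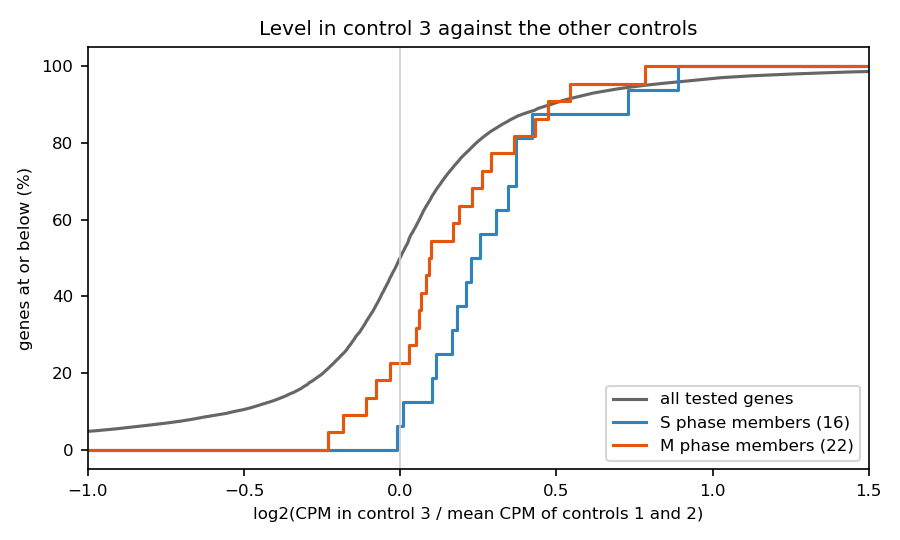
Cumulative share of genes (y axis) by the log2 ratio of CPM in control 3 to the mean CPM of controls 1 and 2 (x axis), for all 17475 tested genes (grey), the 16 S phase genes (blue) and the 22 M phase genes (orange). Past the 1.2-fold ratio lie 43.8% of the S phase genes, 27.3% of the M phase genes and 18.6% of all genes.

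Further genes of the same 2 processes, in lists that hold none of the 38, were also read. Of 40 other replication genes 0 were called in either direction with or without the block, 19 lay above 0 and 21 below, and the median log2 fold change was -0.003. Without control 3 the median was 0.04, with 28 of 40 above 0. Pole, the leading-strand polymerase, and Fen1, which trims Okazaki fragments, had the smallest p-values, with log2 fold changes of -0.11 ± 0.06 and -0.16 ± 0.09 (SE), and -0.11 and -0.11 without control 3. Control 3 was highest in 19 of the 40. In 2 of the 40 (5%, against 4.87% of all genes) every PRP library lay below every control, and in 2 (5%, against 4.34%) above. Lower in all 3 pairs were 6 (15%, against 16.3%) and higher in all 3 were 5 (12.5%, against 16.8%), all near the background. Of 45 other mitosis genes 0 were called, 29 lay below 0 and the median was -0.06, which was -0.05 without control 3. In 8 of the 45 (17.8%, against 4.87% of all genes) every PRP library lay below every control, namely Nuf2, Ccnf, Kif20b, Hmmr, Ncaph, Smc2, Gtse1 and Knl1, and 0 lay above. Lower in all 3 pairs were 15 of the 45 (33.3%, against 16.3% of all genes). The lists here and below were chosen with earlier results of these data known, and genes of a list are not replicates. Such shares are therefore description only. Kif20b, a cytokinesis kinesin, counted 50.5, 49.5 and 47.1 CPM in controls 1 to 3 and 42.8, 44.0 and 39.4 CPM in PRP 1 to 3. Ccnf, cyclin F, counted 40.0, 42.4 and 39.6 CPM in controls 1 to 3 and 35.2, 35.0 and 35.0 CPM in PRP 1 to 3. Their log2 fold changes were -0.22 ± 0.08 and -0.22 ± 0.08 (SE), with blocked adjusted p-values of 0.202 and 0.254, so that neither passed. Without control 3 they were -0.25 and -0.23.

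Markers of other cell types were read in the same comparison. Higher in all 3 pairs were 9 of 10 stromal, 9 of 14 oocyte and 6 of 9 surface epithelium genes, against 16.8% of all genes, and no gene of these lists was lower in all 3. Their median log2 fold changes were 0.16, 0.10 and 0.17, and 0.21, 0.10 and 0.17 without control 3. The other lists were mixed. Higher in all 3 pairs were 0 of 11 granulosa, 2 of 8 endothelial and 2 of 9 macrophage and leukocyte genes. Lower in all 3 were 2, 1 and 2 of them, against 16.3% of all genes. Of 8 pericyte and smooth muscle genes 4 were higher in all 3 and 0 lower, and of 6 tested erythroid genes 0 were either. None of these marker genes was called without the block. With it Zp2 and Zp3, of the oocyte's zona pellucida, and Krt19, an epithelial keratin, were called higher, at 0.23 ± 0.04, 0.24 ± 0.04 and 0.36 ± 0.06 on the log2 scale (SE, edgeR adjusted p = 0.033, 0.041 and 0.033). The part of these cell types in the mitosis values was not tested.

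The regulators that switch these promoters gave 0 calls among 19 genes, with a median log2 fold change of -0.10 (-0.04 without control 3), 4 above 0 and 15 below. Foxm1 and Mybl2, activators of the mitotic set, had log2 fold changes of -0.02 ± 0.06 and -0.01 ± 0.07 (SE), and -0.01 and 0.04 without control 3. E2f7 and E2f8, repressive E2F factors, had the smallest p-values and all PRP libraries below all controls (2 of 19, 10.5%, against 4.87% of all genes), at -0.30 ± 0.14 and -0.45 ± 0.21 (SE, blocked adjusted p = 0.384 and 0.211). Without control 3 they were -0.24 and -0.16. Lower in all 3 pairs were 9 of the 19 (47.4%, against 16.3% of all genes), and 0 were higher in all 3. E2f8 counted 17.0, 18.6 and 29.7 CPM in controls 1 to 3 and 14.5, 16.5 and 16.7 CPM in PRP 1 to 3. E2f2, an activating factor, counted 11.7, 9.75 and 45.1 CPM in controls 1 to 3 and 11.6, 9.11 and 13.2 CPM in PRP 1 to 3. In control 3 it stood 4.21-fold above the mean of the other controls, further than any of the 38, and its log2 fold change went from -0.97 to 0.08 without that library. Foxm1, Mybl2 and E2f2 were named after their values were seen.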

How the data were processed

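RNA was extracted on columns and made into mRNA libraries with a SMARTER kit, per the labels' protocols. The deposited file is a single table of unnormalised counts, with 1 column for each of the 6 libraries. The genome build was mm10, per the submitters' processing notes, and the sources used here do not give the aligner, counter, annotation or strand setting. The column PPR3 was taken as the library titled PRP3, since every other title had its own column. The 38 genes and all lists were chosen with earlier results of these data known.

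Groups of 3 were compared on the counts with the robust quasi-likelihood F test of edgeR 4.0.16 (R 4.3.3), after filterByExpr and TMM scaling, with Benjamini-Hochberg adjustment over 17475 genes, a threshold of 0.05, and 95% intervals gene by gene. CPM are TMM-scaled, and levels per kb use the merged exons of all GENCODE M21 basic forms of a gene, not the length of a transcript. Alternatives were a replicate block, DESeq2 1.42.0, limma-voom 3.58.1, other scalings and filters, and leaving out each library. All 38 genes are given, and of other lists the genes past the threshold or else the 2 with the smallest p. Of the marker lists sums, counts, median ratios and a few genes that passed with the block or, chosen after their values were seen, mark a range are printed. The labels do not say that replicate numbers pair libraries. Deviations from the group means of same-numbered libraries correlated at 0.49, 0.65 and 0.57 over 11165 genes (others -0.02 or lower), so the numbers were treated as pairs from the data. Deviations sum to 0 within a group, so positive same-number values by themselves pull the others down. All p-values with the block rest on this pairing, which was read from the same counts. No 2 libraries agreed within sampling noise. The fits were tested on simulated data. Intervals cover the spread between these libraries only.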

Additional observations from a re-analysis of the deposited data

How the results depend on the processing

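Of 16 alternatives none called any of the 38 genes, and the S and M phase medians moved by less than the spread of their replicates in each. That spread (0.129 and 0.054, log2) includes control 3, which widens it, so it cannot show that the medians are stable without that library. Leaving out control 3 turned the sign of both, from -0.07 to 0.05 and from -0.03 to 0.02. With the replicate block, which pairs libraries by number, 21 genes of the whole table were called instead of 0, and 0 to 19 with 1 library or pair left out (19 in the block without pair 3). Signs were less stable than calls: 26 of the 38 changed sign in at least 1 alternative and 12 in none. Without the block, control 3 was the library whose removal turned the most signs (16). Leaving out a library, or a pair in the block, gave these ranges of log2 fold change: Pcna -0.11 to 0.10, Mcm4 -0.17 to 0.042, Mcm5 -0.040 to 0.16, Mcm6 -0.043 to 0.075, Mcm7 -0.18 to 0.026, E2f1 -0.039 to 0.18, Cdc6 -0.50 to 0.030, Cdt1 -0.18 to 0.085, Rrm1 -0.11 to 0.074, Rrm2 -0.39 to 0.056, Gmnn -0.25 to 0.017, Uhrf1 -0.097 to 0.087, Mki67 -0.44 to 0.0069, Top2a -0.24 to 0.031, Ccnb1 -0.10 to 0.014, Ccnb2 -0.057 to 0.076, Ccna2 -0.092 to 0.16, Aurka -0.038 to 0.10, Aurkb -0.075 to 0.24, Plk1 -0.064 to 0.0085, Cdc20 -0.045 to 0.12, Kif11 -0.13 to 0.044, Kif23 -0.16 to 0.086, Cenpe -0.042 to 0.041, Nusap1 -0.21 to 0.015, Ube2c -0.0096 to 0.063. Rrm1 also turned to 0.00015 with total-count scaling, 0.00084 without a filter and 0.00079 with the CPM filter, and Ccna2 to 0.0026 in limma-voom and 0.00071 with the block. The cause of these sign changes was not tested. Cdc6 and Ccne2 had the lowest counts of the 38, 387 to 808 and 336 to 592 per library. The part of depth in their spread was not tested. Other scalings moved the median of all genes by at most 0.0023 (log2).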
